A study of Homo sapiens with 4 samples.

Results

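The unfolded protein response is the signalling network by which a cell answers misfolded protein in the endoplasmic reticulum (ER), and the genes described here encode its sensors, its membrane-bound transcription factors and the proteases that release those factors. The 9 genes ERN1, EIF2AK3, ATF6, ATF6B, XBP1, MBTPS1, MBTPS2, CREB3 and CREB3L2 were found by symbol or older alias in the platform annotation, and every probe set naming only that gene was kept. They were 9 of the 19775 genes with such a probe set, and they held 23 of 54613 probe sets. On GRCh38.p14, by RefSeq, the sensor genes span chr17:64039142-64130144 (ERN1), chr2:88556741-88628145 (EIF2AK3), chr1:161766320-161964070 (ATF6) and chr6:32115264-32128246 (ATF6B). XBP1 spans chr22:28794560-28800569, the protease genes chr16:84053763-84116942 (MBTPS1) and chrX:21839617-21885423 (MBTPS2), CREB3 chr9:35732666-35736999 and CREB3L2 chr7:137874979-138002086. Probe sets were placed on genes by the annotation alone, so the exon each one reads is not given here. The levels come from MCF10A cells, an immortalised, non-tumorigenic line of human breast epithelium, whose total RNA was hybridised to 4 Affymetrix U133 Plus 2.0 arrays. Of these arrays, 2 are labelled double knockdown, from cells carrying short hairpin RNAs against Cbl and Cbl-b, and 2 are controls, from cells carrying a control hairpin. Both groups grew in DFCI-1 medium and were harvested in ordinary growth. The labels do not say whether the cells were pools or clones, or how long the hairpins had acted. They call the arrays of a group duplicates and name no separate cultures, so p-values cover array-to-array spread alone, and that spread may be technical. In bulk RNA, fewer cells of a type and less RNA per cell cannot be told apart.

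As background, a misfolded-protein load in the ER lumen activates separate sensors. IRE1, encoded by ERN1, is a kinase and endoribonuclease that removes an intron from XBP1 mRNA, which lets the active factor XBP1s be made. PERK, encoded by EIF2AK3, phosphorylates the translation factor eIF2 alpha, which lowers general translation and favours that of ATF4. ATF6 and its relatives travel to the Golgi, where the site-1 and site-2 proteases, encoded by MBTPS1 and MBTPS2, cut them free from the membrane. An array intensity measures transcript level and shows neither phosphorylation, cleavage nor XBP1 splicing.

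Each value is a deposited linear probe set intensity, and changes are the labelled double knockdown minus the control on the log2(intensity + 16) scale, which understates the change of dim genes. A gene was represented by its brightest probe set and tested with limma if its mean reached the brightness minimum of 14.6, the median of all values. "Called" means an adjusted p under 0.05 over all 12965 genes tested. A probe set was called in the same way over 27334 probe sets. Levels of different probe sets are not set against each other.

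The targeted genes were examined first. The brightest CBL probe set read 31.1 and 29.0 on the labelled double knockdown arrays, against 125.9 and 84.4 on the control arrays, and it was lower (log2 change -1.37, adjusted p = 0.00138 by limma). The other 2 tested CBL probe sets were not called, at -0.33 (adjusted p = 0.0983) and -0.20 (0.225), and the mean of the probe sets gave -0.63 (0.00363). CBLB read 94.8 and 99.5 on the labelled double knockdown arrays, against 64.3 and 70.05 on the control arrays, and was higher (log2 change 0.45, adjusted p = 0.0148), a call lost without double knockdown array 1 (0.0867) or 2 (0.133). CBLB thus went against its label, and every direction below is that of the arrays labelled double knockdown. Of 12 mammary epithelial markers 8 had a probe set of their own, all above the minimum. Their summed intensity was 28179 to 28685 on the labelled double knockdown arrays and 41896 to 42123 on the control arrays. The part of this difference in the results below was not tested. Bright probe sets weigh most in such a sum. KRT14 read 4710 and 4266 in the labelled double knockdown, against 13558 and 14078 in the control. KRT18 went the other way, and by log2 change 6 of the 8 were negative and 2 positive. Of these 8 markers 2 were called lower, KRT14 (log2 change -1.62) and KRT5 (-0.73), and 1 higher, KRT18 (0.53). Those not called were ITGB4 (-0.37), SFN (-0.28), ITGA6 (-0.19), EGFR (-0.08) and CDH1 (0.01). At an unadjusted p under 0.05, limma had 1 of the 8 higher and 4 lower, against 2080 and 1883 of the 12965 tested genes. These 8 markers were named after their values were seen. Of 6 leukocyte markers with a probe set 3 were tested, CSF1R, CD3E and ITGAM, and PTPRC, MS4A1 and LYZ had means below the minimum. Limma called 0 of the 3, with 0 at an unadjusted p under 0.05, and their values ran from 17.9 to 31.1. Of 10 endothelial and fibroblast markers 4 were tested and 1 was called, lower, and CDH5, VWF, KDR, PDGFRA, PDGFRB and LUM had means below the minimum. DCN, the 1 called, read 54.9 and 77.9 in the labelled double knockdown, against 127.9 and 126.9 in the control (log2 change -0.81). COL1A1 read 140 and 122 in the labelled double knockdown, against 142 and 144 in the control (-0.11). PECAM1 (-0.14) and COL1A2 (-0.15) were also not called. The tested markers of both lists were named after their values were seen.

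XBP1, EIF2AK3 and ERN1 were called higher, and none of the 9 genes was called lower. The share called higher was 33.3% of the 9, against 9.40% of all tested genes. It was 2 of the 9 with a constant of 1 or 64, without a brightness filter or with an intensity trend in the fit. ERN1 missed the threshold in each of those settings. With same-numbered arrays blocked as pairs it was 4 of the 9. At an unadjusted p under 0.05, limma had 5 of the 9 higher and 0 lower, against 2080 higher and 1883 lower (14.5%) of the 12965 tested genes. The median log2 change of the 9 was 0.24, and that of all tested genes was -0.01. The groups did not overlap for 8 genes, 7 with the labelled double knockdown above and 1 with it below, while 57.5% of all tested genes were apart in this way, 28.1% above and 29.3% below. EIF2AK3 had the 85th highest change among the 12965 genes, XBP1 the 118th and ERN1 the 1182nd.

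**Figure D1:**
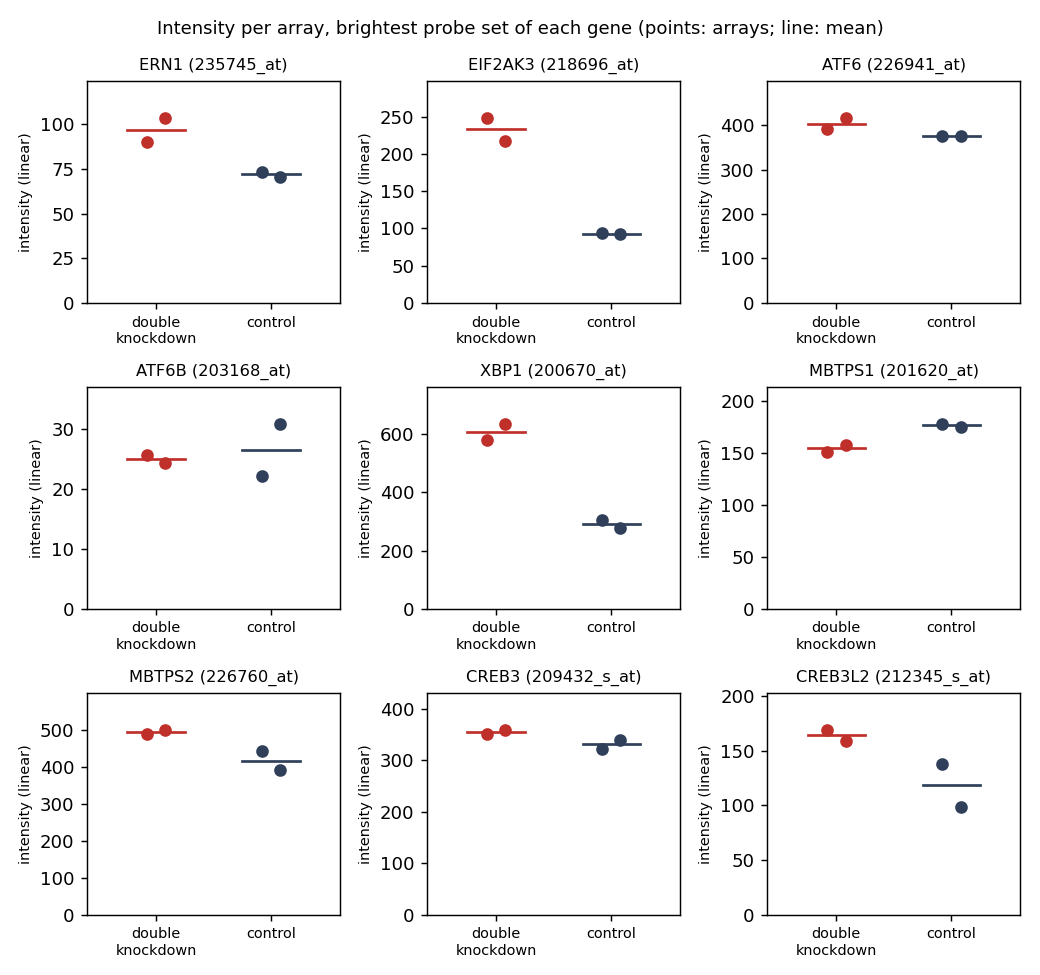
Linear intensity (vertical axis, from 0) on each array for the brightest probe set of the 9 genes, with double knockdown to the left of control, points for arrays and lines for means. EIF2AK3 at 248 and 218 and XBP1 at 581 and 635 stand clear of their controls, while the ATF6B groups overlap.

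EIF2AK3, the PERK kinase, read 248 and 218 on the labelled double knockdown arrays, against 93.9 and 92.4 on the control arrays. Both labelled double knockdown arrays were far above both controls. The rise was 2.28-fold with the constant (log2 change 1.19 ± 0.09 SE, adjusted p = 0.000305 by limma) and 2.50-fold on plain intensity. The 95% interval of the log2 change was 0.97 to 1.41. With 1 array left out in turn the change was between 1.10 and 1.28 and was called each time. Such a fit leaves 1 array in a group, here and below, and that array is assumed to vary like the other group. A second EIF2AK3 probe set, 241463_at, read 4.85 and 4.89 in the labelled double knockdown and 5.57 and 5.19 in the control, below the brightness minimum, and was not tested.

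ERN1, the IRE1 sensor, gave different changes on its 3 probe sets. On the brightest, 235745_at, the labelled double knockdown arrays read 90.0 and 103.6, against 73.5 and 70.5 on the control arrays. All labelled double knockdown values were above the controls, by a small margin (log2 change 0.36 ± 0.09 SE, 1.28-fold, adjusted p = 0.0416 over genes). Tested over probe sets, the same values had an adjusted p of 0.0506 and were not called. The call over genes was also lost whichever array was left out, with an adjusted p of 0.0989 without double knockdown array 1, 0.317 without array 2, 0.0737 without control array 1 and 0.0942 without control array 2. On 227755_at the values were 112.4 and 110.0 in the labelled double knockdown and 52.0 and 36.5 in the control. This change was larger (log2 change 1.09 ± 0.13 SE, adjusted p = 0.00322 over probe sets), and that call was lost without double knockdown array 1 (adjusted p = 0.0721) or 2 (0.0894), where the change was 1.08 and 1.10. The groups overlapped on 207061_at, at 28.1 and 22.5 in the labelled double knockdown and 28.0 and 25.9 in the control (log2 change -0.06, adjusted p = 0.746). The mean of the 3 probe sets gave a log2 change of 0.46 with adjusted p = 0.00857. Why the probe sets differ was not tested.

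ATF6, the membrane-bound factor that Golgi proteases release, was measured by 4 probe sets, none of which was called. Its brightest read 391 and 416 in the labelled double knockdown, against 375 and 376 in the control. The labelled double knockdown values were higher, but by little (log2 change 0.10 ± 0.09 SE, adjusted p = 0.490), with a 95% interval of -0.10 to 0.30, or 0.934-fold to 1.23-fold. The other 3 ATF6 probe sets had log2 changes of 0.08, 0.21 and 0.16, with adjusted p of 0.609, 0.221 and 0.507. On 203952_at and 217550_at the groups overlapped. A rise of the size seen for XBP1 or EIF2AK3 thus lay outside the interval of each of the 4 probe sets, the widest of which ended at 0.49.

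ATF6B, the close relative of ATF6, lay near the brightness minimum. Its brightest probe set read 25.7 and 24.4 in the labelled double knockdown and 22.3 and 30.9 in the control. The control arrays enclosed both labelled double knockdown arrays (log2 change -0.05 ± 0.11 SE, adjusted p = 0.838, 95% interval -0.31 to 0.21). A second ATF6B probe set had a log2 change of 0.00 (adjusted p = 0.994), and the last lay below the minimum, at 12.7 and 11.2 in the labelled double knockdown and 12.6 and 12.0 in the control. At such intensities the added constant compresses changes.

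XBP1, the factor activated by IRE1, read 581 and 635 on the labelled double knockdown arrays, against 305 and 277 on the control arrays. Both labelled double knockdown values were far above both controls. The change was 1.02 ± 0.09 (log2, SE) with adjusted p = 0.00063 by limma, or 2.03-fold with the constant and 2.09-fold on plain intensity, with a 95% interval of 0.80 to 1.24. With 1 array left out, under the same assumption for the lone array, it was 0.96 to 1.09 and called. The probe set sums whatever XBP1 forms it matches, so spliced and unspliced XBP1 mRNA were not told apart. A second XBP1 probe set, 242021_at, read 6.59 and 6.57 in the labelled double knockdown and 6.08 and 5.41 in the control, below the minimum.

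**Figure D2:**
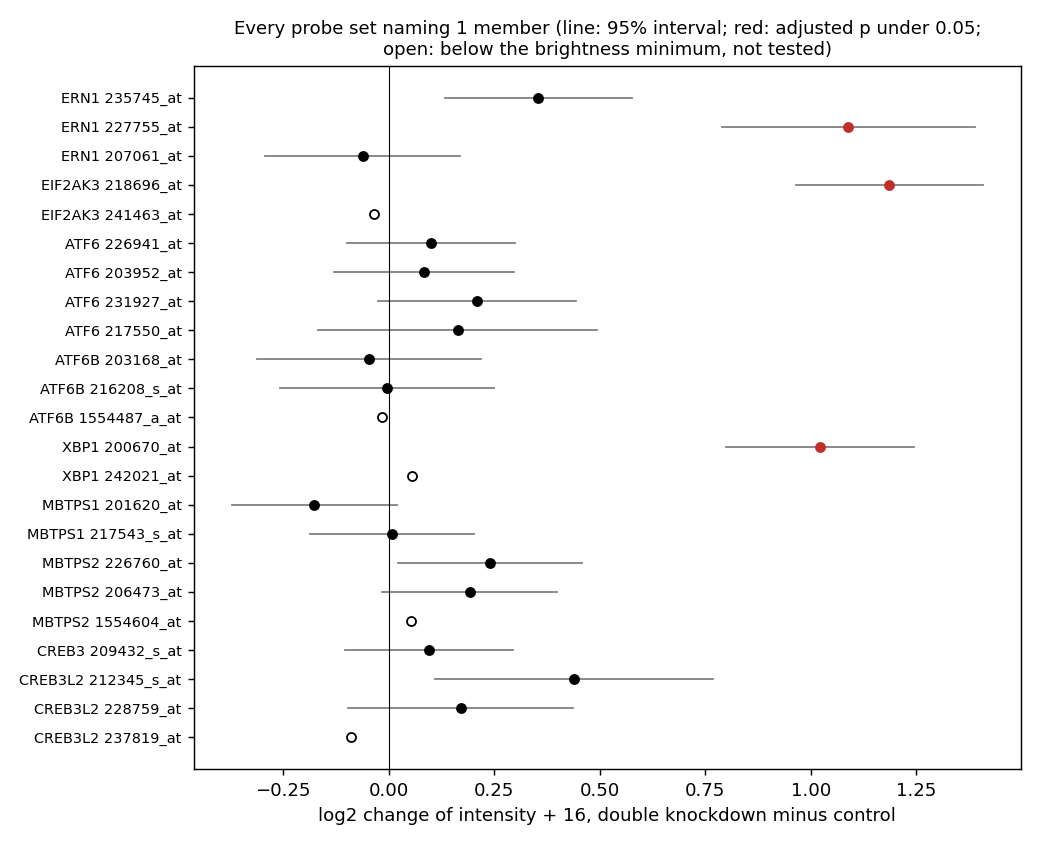
Log2 change (horizontal axis, labelled double knockdown minus control) of all 23 probe sets that name only 1 of the 9 genes, with 95% intervals. The 3 red points are 1 probe set each of ERN1, EIF2AK3 and XBP1, the other 15 tested probe sets are black, and the 5 open points lay below the brightness minimum and were not tested.

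The upstream sequences of the 3 genes called higher are shown because the promoters of ER stress genes are known to carry short elements for factors of this same response. They are the 250 bases before a transcript start, from RefSeq on GRCh38.p14, 5′ to 3′ on the gene's strand: XBP1 at chr22:28800570-28800819, minus strand, EIF2AK3 at chr2:88627465-88627714, minus strand, and ERN1 at chr17:64130145-64130394, minus strand. The start used for EIF2AK3 lies inside the annotated gene, which ends at 88628145. XBP1 had a second start, whose upstream bases at chr22:28800078-28800327 held none of the motifs searched and are not shown. Capitals mark a match to the ER stress element (ERSE), which is CCAAT, 9 bases of any kind and CCACG, and to which ATF6 and the factor NF-Y are known to bind.
XBP1: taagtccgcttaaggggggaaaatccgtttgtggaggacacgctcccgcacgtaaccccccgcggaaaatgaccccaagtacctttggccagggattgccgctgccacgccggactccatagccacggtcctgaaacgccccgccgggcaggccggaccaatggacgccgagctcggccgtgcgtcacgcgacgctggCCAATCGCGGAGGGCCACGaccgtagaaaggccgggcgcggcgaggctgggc
EIF2AK3: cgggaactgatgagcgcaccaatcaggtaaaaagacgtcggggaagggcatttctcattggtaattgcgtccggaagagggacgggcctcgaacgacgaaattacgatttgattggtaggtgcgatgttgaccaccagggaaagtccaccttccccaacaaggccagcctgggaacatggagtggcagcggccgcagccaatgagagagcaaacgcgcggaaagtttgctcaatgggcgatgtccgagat
ERN1: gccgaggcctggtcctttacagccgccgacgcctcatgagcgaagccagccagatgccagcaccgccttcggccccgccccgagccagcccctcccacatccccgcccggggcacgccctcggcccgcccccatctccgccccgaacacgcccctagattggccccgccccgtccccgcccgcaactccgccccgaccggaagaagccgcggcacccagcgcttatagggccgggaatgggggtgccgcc

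The XBP1 match began 52 bases before the start, and the EIF2AK3 and ERN1 windows held none of the 4 motifs searched. Those were ERSE, the UPR element TGACGTGG, the cyclic AMP element TGACGTCA and the CHOP-ATF4 composite TGATGCAA, each on both strands, of which TGACGTGG and TGACGTCA share their first letters and CCACG of ERSE can overlap the UPR element on the other strand. All 9 genes had at least 1 window from 250 bases before to 50 after a start, 11 in all. ERSE was in 1 of these 11 windows and in 27 of 35116 windows of all genes (0.0769%). The cyclic AMP element was in 1 of the 11 windows, that of CREB3L2, and in 1.85% of all windows. The UPR element and the composite were in none of the 11, and in 0.729% and 0.866% of all windows. A match describes letters in this window, and its absence says nothing of a factor's binding.

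ERSE matches also lay in the windows of 6 of 14 ER folding genes with a window, which are shown beside that of XBP1 to let the spacer and the fixed ends be compared, with the fixed letters in capitals and all written in the direction of the motif. They lie at chr22:28800603-28800621 (XBP1), chr9:125241391-125241409 (HSPA5), chr12:103930216-103930234 and chr12:103930321-103930339 (HSP90B1), chr19:12938384-12938402 (CALR), chr22:49918554-49918572 (CRELD2), chr2:10812853-10812871 (PDIA6) and chr5:179698778-179698796 (CANX).
XBP1: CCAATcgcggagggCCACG
HSPA5: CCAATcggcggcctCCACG
HSP90B1, distal: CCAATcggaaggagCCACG
HSP90B1, proximal: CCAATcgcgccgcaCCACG
CALR: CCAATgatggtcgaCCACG
CRELD2: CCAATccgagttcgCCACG
PDIA6: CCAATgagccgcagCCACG
CANX: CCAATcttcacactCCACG

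HSPA5 (log2 change 1.92), CRELD2 (1.87), CALR (1.13), HSP90B1 (1.02) and PDIA6 (0.84) were called higher. CANX, the lectin chaperone calnexin, had a log2 change of 0.28 and was not called (adjusted p = 0.0842), though it was called in 3 other settings, at 0.54 and adjusted p = 0.00464 where probe sets shared by several transcripts were dropped. Of the 6 folding genes with a match 5 were called higher, and of the 8 with a window but no match 7 were, with SDF2L1 at 2.47 the largest change of both groups. Apart from HSPA5 and SDF2L1, these genes were named after their values were seen.

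The site-1 and site-2 proteases were not called. MBTPS1, the site-1 protease, read 152 and 158 on the labelled double knockdown arrays, against 178 and 176 on the control arrays. It was the 1 gene of the 9 with both labelled double knockdown arrays below both controls (log2 change -0.18 ± 0.08 SE, adjusted p = 0.207, 95% interval -0.37 to 0.02). Its second probe set read 74.3 on each labelled double knockdown array and 72.4 and 75.2 on the control arrays (log2 change 0.01, adjusted p = 0.971).

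MBTPS2, the site-2 protease, read 490 and 499.8 in the labelled double knockdown and 442 and 392 in the control. The groups did not overlap, and the change of 0.24 ± 0.09 (log2, SE) had adjusted p = 0.124 and an unadjusted p of 0.0332. Without control array 2 it was 0.16. A second probe set, at 38.5 and 33.9 in the labelled double knockdown and 29.6 and 29.7 in the control, gave 0.19 with adjusted p = 0.207. The last MBTPS2 probe set lay below the minimum. The intervals of the tested probe sets reached 0.46 and 0.40, so a rise as large as that of XBP1 lay outside both.

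CREB3 and CREB3L2 encode further transcription factors of the ER membrane that the same proteases cut. CREB3, also called Luman, read 351 and 359 in the labelled double knockdown and 322 and 340 in the control. The groups were apart by a small margin, and the gene was not called (log2 change 0.10 ± 0.09 SE, adjusted p = 0.505, 95% interval -0.10 to 0.30). It had 1 probe set, of the type shared by several transcripts.

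CREB3L2, also called BBF2H7, read 169 and 159 in the labelled double knockdown, against 138 and 98.5 in the control. The control pair was widely spread, and both labelled double knockdown arrays lay above it. Its log2 change of 0.44 ± 0.14 SE, or 1.36-fold, was not called (adjusted p = 0.0697), with a 95% interval of 0.12 to 0.76. Without control array 1 it was 0.65 and called (adjusted p = 0.0121), while without control array 2 it was 0.22 with adjusted p = 0.169. The second CREB3L2 probe set overlapped between groups, at 29.4 and 34.6 in the labelled double knockdown and 30.6 and 23.0 in the control (log2 change 0.17, adjusted p = 0.383). The last, 237819_at, lay below the minimum at 9.60 and 8.20 in the labelled double knockdown and 10.96 and 9.97 in the control.

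Over all 9 genes, 18 of the 23 probe sets reached the brightness minimum. Of these 18, limma called 3 higher (16.7%, against 7.87% of all probe sets tested) and 0 lower (against 5.18%), and 6 were higher and 0 lower at an unadjusted p under 0.05, against 15.6% and 13.0% of all tested probe sets. The groups did not overlap on 11 of the 18, 10 above and 1 below, against 56.6% of all tested probe sets, 28.4% above and 28.2% below. The 5 probe sets below the minimum had means of 5.12 to 12.1. A further 2 probe sets named ATF6B or MBTPS2 together with another gene and were left out. Of the 6 genes with more than 1 tested probe set, ERN1 alone had probe sets on both sides of the threshold.

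**Figure D3:**
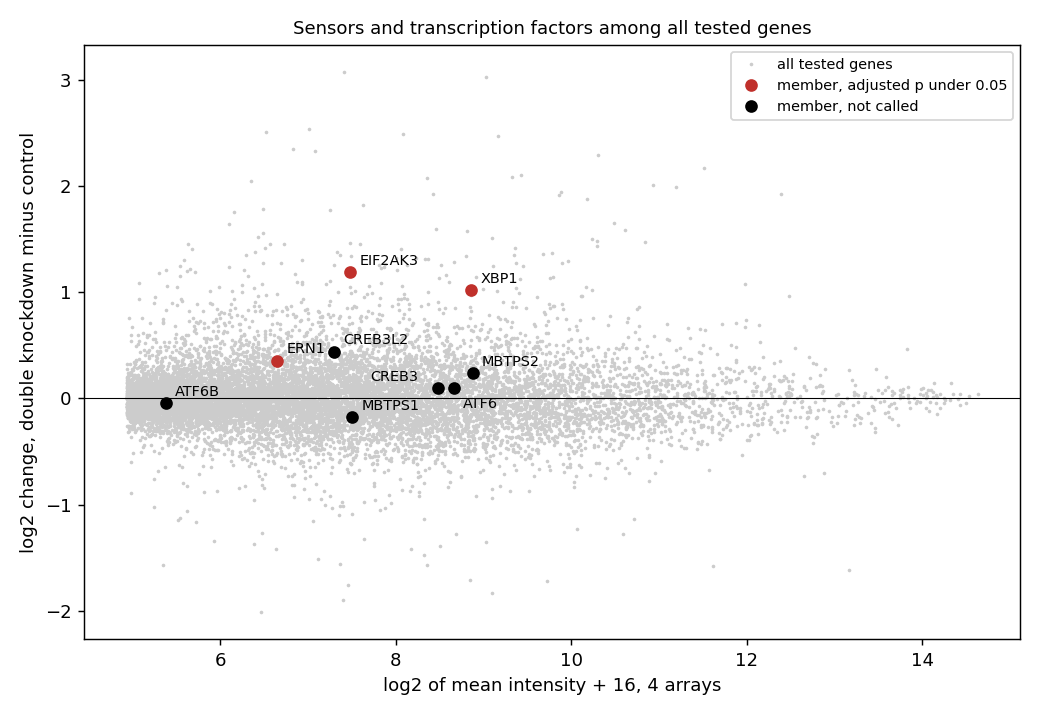
Log2 change (vertical axis, labelled double knockdown minus control) against log2 of the mean intensity + 16 for 12965 tested genes (grey) and the 9 genes (black, or red where called). EIF2AK3 at 1.19 and XBP1 at 1.02 lie at the upper edge of the cloud, and ERN1 at 0.36 lies within it.

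The other genes of the network were counted in 7 lists, 92 genes in all, of which 85 were tested. Of these 85, 37 were called higher (43.5%) and 3 lower, against 9.40% of all tested genes higher and 6.59% lower, and their median log2 change was 0.25. The lists were drawn up with earlier results of these arrays known, so their counts are no independent evidence.

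Of 9 tested partners and outputs of IRE1 1 was higher and 1 lower, at a median of -0.14. At an unadjusted p under 0.05, limma had 1 of the 9 higher and 4 lower, where 2080 and 1883 of the 12965 tested genes pass. MAPK8, the stress kinase JNK1, rose (log2 change 0.44, adjusted p = 0.034), and PTPN1, a phosphatase of the ER membrane, fell (-0.98, adjusted p = 0.0111). PTPN1 lost its call without double knockdown array 2 (0.0699), and MAPK8 without double knockdown array 1 (0.0845) or 2 (0.244) or control array 1 (0.11). With the mean of its probe sets MAPK8 was at 0.29 and not called (adjusted p = 0.052). ERN2, the epithelial paralog of ERN1, read 62.6 and 57.1 in the labelled double knockdown and 61.4 and 58.1 in the control, and the groups overlapped (log2 change 0.00).

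Among genes of the PERK branch, 7 of 15 tested were higher and 1 lower (8 and 1 unadjusted), at a median of 0.35. DDIT3, which encodes CHOP, had the largest rise of the list (log2 change 3.02, adjusted p = 1.33e-05), followed by DNAJC3, an ER co-chaperone and inhibitor of PERK (1.43), and CHAC1, which degrades glutathione (1.05). ATF4 rose less, to 7376 and 7786 in the labelled double knockdown, against 5667 and 5891 in the control (log2 change 0.39, adjusted p = 0.022). That call was lost without double knockdown array 1 (0.109) or 2 (0.191) or control array 1 (0.0594). The other eIF2 alpha kinases, named after their values were seen, were not called, with log2 changes of -0.08 for EIF2AK1, -0.07 for EIF2AK2 and 0.12 for EIF2AK4. Whether these differ from EIF2AK3 was not tested. EIF2S1, their shared substrate and the 1 gene of the list called lower, had a log2 change of -0.36 (adjusted p = 0.0382). That call was lost without double knockdown array 1 (0.256) or 2 (0.141) or control array 2 (0.0985), and the change was -0.03 where probe sets shared by several transcripts were dropped.

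The relatives of CREB3 and the other parts of the protease system had 3 of 12 tested genes higher and 1 lower (3 and 2 unadjusted), at a median of 0.01. CREB3L4, a CREB3 relative, read 139.8 and 154.6 in the labelled double knockdown, against 71.0 and 84.4 in the control, and rose (log2 change 0.80, adjusted p = 0.00276). CREBRF, a regulatory factor that binds CREB3, rose (0.60, adjusted p = 0.0193), a call lost without double knockdown array 1 (0.0718) or 2 (0.127). CREB3L1 and CREB3L3 had means below the minimum, with highest values of 14.3 and 8.94 in the labelled double knockdown and 14.1 and 9.35 in the control. INSIG1, an ER anchor of the SREBP pathway, fell (log2 change -1.09, adjusted p = 0.00231), while its relative INSIG2, named after its value was seen, rose (0.55, adjusted p = 0.00576), a call lost without double knockdown array 2 (0.0666). SREBF1 and SREBF2, whose products are cut by the same proteases, were not called, at 0.01 and -0.31 (adjusted p = 0.983 and 0.116). Of 4 tested factors that bind ERSE 1 was higher and 0 lower (1 and 0 unadjusted), at a median of -0.03. NFYB, a subunit of NF-Y, rose (0.39, adjusted p = 0.0279), and that call was lost without double knockdown array 1 or 2 or control array 1. With 1 array left out its change was 0.33 to 0.46. The NF-Y subunits NFYA (0.02) and NFYC (-0.11), and YY1 (-0.09), were not called, and their groups overlapped. These 3 were named after their values were seen.

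ER folding genes, many of them known targets of ATF6 or XBP1s, had 13 of 15 higher and 0 lower by limma, at a median of 1.31. At an unadjusted p under 0.05 there were 14 higher and 0 lower, where 2080 and 1883 of the 12965 tested genes pass, the background also for the unadjusted counts of the other lists. SDF2L1, a chaperone cofactor, had the largest change of the list (log2 2.47), then DNAJB9 (2.29), a cofactor of BiP, and MANF (2.01), a secreted ER stress protein. HSPA5, which encodes BiP, the chaperone that holds the sensors inactive, read 8849 and 8065 in the labelled double knockdown, against 2479 and 1989 in the control (log2 change 1.92 ± 0.12 SE, adjusted p = 9.77e-05). With the mean of each gene's probe sets HSPA5 was at 2.46, above DNAJB9 at 2.23 and MANF at 2.01. Genes of ER translocation and degradation had 8 of 15 higher and 0 lower (10 and 0 unadjusted), at a median of 0.47, led by HERPUD1 (2.17), SEL1L (1.51) and DERL2 (1.48). With the mean of each gene's probe sets these were 1.43, 0.97 and 1.32, all called, which puts DERL2 above SEL1L. Of 15 genes of transport between ER and Golgi, the route ATF6 and the CREB3 factors take, 4 were higher and 0 lower (9 and 0 unadjusted), at a median of 0.24. These included SEC24D (0.87, adjusted p = 0.0134), SEC24A (0.51, 0.0474) and KDELR3 (0.42, 0.0432). The calls of all 3 were lost without double knockdown array 1 (0.0727, 0.222 and 0.254) or 2 (0.0532, 0.135 and 0.121), that of SEC24A also without control array 2 (0.107, at a log2 change of 0.29) and that of KDELR3 without control array 1 (0.135).

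**Figure D4:**
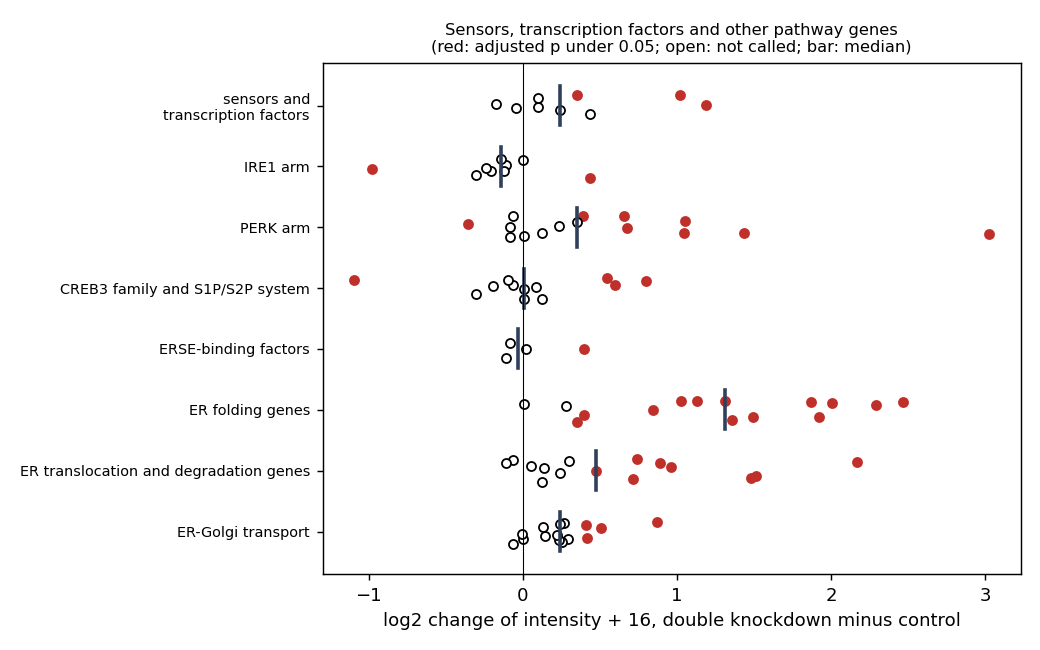
Log2 change (horizontal axis, labelled double knockdown minus control) of each tested gene, with 1 row for the 9 sensors and transcription factors and 1 for each of the 7 lists, red where called, open where not, with a bar at the median. The bar is at 0.24 for the 9 genes, at 1.31 for ER folding genes and at -0.14 for the IRE1 list.

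The calls of XBP1 and EIF2AK3 held in all 15 other settings, with log2 changes of 0.92 to 1.09 and 0.92 to 1.31 and adjusted p of at most 0.00912 and 0.00701. ERN1 kept a positive change, from 0.24 to 0.46, but was called in 7 of the 15. CREB3L2 was called in 2 of them. ATF6, MBTPS1 and MBTPS2 were called in none of 15, and ATF6B and CREB3 in none of the 14 that could give them a value.

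**Figure D5:**
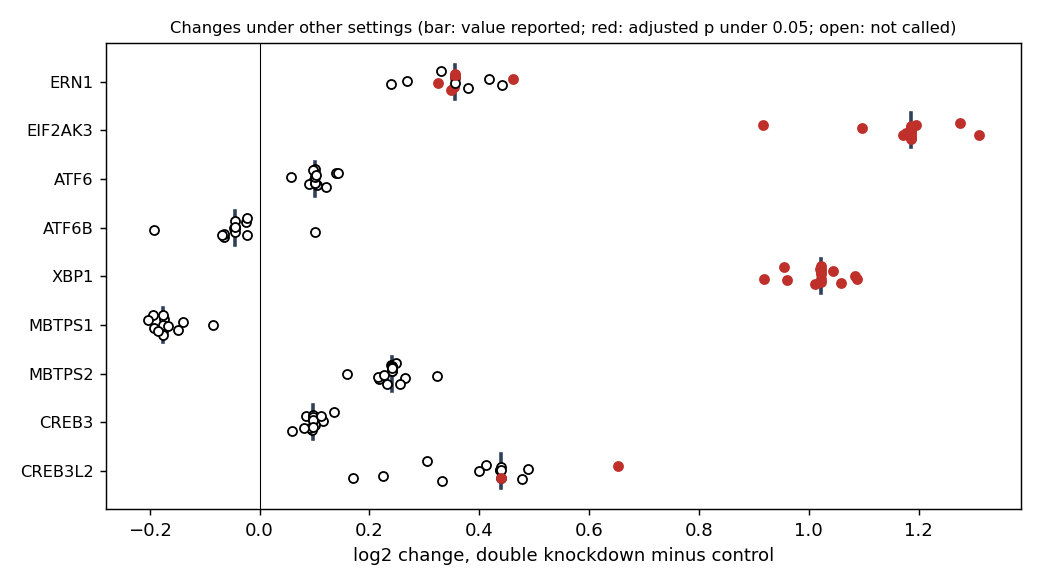
Log2 change (horizontal axis) of the 9 genes under the reported setting (bar) and the other settings tried (points, red where called and open where not). XBP1 and EIF2AK3 stay red from 0.92 upward, ERN1 is red in some settings, and ATF6B lies on both sides of 0.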

How the data were processed

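Total RNA of MCF10A cells was measured on 4 arrays, 2 labelled double knockdown and 2 control, grouped by sample title. The deposited values were taken as linear intensities of probe sets because of their range. The steps from scanner image to intensity, and any normalization by the authors, are not given in the sources used here. Array medians were 14.5 to 14.7, so no further normalization was applied. Of 54675 probe sets, 62 controls were left out; 41091 named 1 gene, 1801 several and 11721 none. Of the 41091, 41037 matched the RefSeq table of GRCh38.p14 by gene identifier and took its symbol.

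Log2(intensity + 16) values went into limma 3.58.1 under R 4.3.3 (two-sided, lmFit and eBayes with no covariate), adjusted by Benjamini-Hochberg over the 12965 genes, or the 27334 probe sets, with a mean of at least 14.6. With 2 arrays per group an exact permutation test cannot go below 0.333. The script was tested on simulated data. Errors are moderated SEs. Other settings were constants of 1 and 64, no filter or one at percentile 65, an intensity trend, cyclic loess, quantile or median scaling, averaged probe sets per gene, dropping probe sets shared by several transcripts, a replicate block, and each array left out (keeping the probe sets chosen on all 4). Deviations of same-numbered arrays correlated at 0.24 over genes, and with 2 pairs and no label of a shared batch the numbers were not taken as pairing.

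Members and lists were chosen with earlier results of these data known. The text names the 9 genes, CBL, CBLB, 9 fixed pathway genes and up to 3 called genes per list with the largest change, besides those it says were named after their values were seen.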

Additional observations from a re-analysis of the deposited data

How the results depend on the processing

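Counts stayed within 1.5 times of those reported except as follows. Leaving out 1 array, 376 to 1123 genes were called higher and 155 to 880 lower (all arrays 1219 and 855), the lowest both without double knockdown array 2. Of the probe sets of the 9 genes, 1 (without double knockdown array 2) to 4 were called higher (3 with all arrays), and of the 9 genes 2 to 3 (3). Of the other pathway genes, 23 to 35 were called higher (37) and 1 to 3 lower (3), the lowest without double knockdown array 2. Without a brightness filter, 1 pathway gene was called lower.

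The replicate block called 5 pathway genes lower and 4 of the 9 genes higher. With it CREB3L2, at 0.44, passed the test (adjusted p = 0.0373), and so did SREBF2, at -0.31 (0.0411), while KDELR3 missed it (0.053). The numbers were not taken as pairing.

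ERN1 missed the threshold with a constant of 1 (adjusted p = 0.0598) or 64 (0.0575), without a filter (0.0691) and with an intensity trend (0.0515); the cause was not tested. With all 4 arrays, ATF4, MAPK8, CREBRF, NFYB, PTPN1, EIF2S1, SEC24A, SEC24D and KDELR3 each missed it in at least 1 other setting. A constant of 64 reduced the change of CBL to -0.84, SEC24D to 0.54, CREBRF to 0.39 and ERN1 probe set 227755_at to 0.70, all still called. Changes of sign occurred in genes and probe sets that were not called. With an array left out, ATF6B ranged from -0.19 to 0.10, its probe set 216208_s_at from -0.12 to 0.11, ATF6 probe set 217550_at from -0.042 to 0.37, ERN1 probe set 207061_at from -0.16 to 0.037, MBTPS1 probe set 217543_s_at from -0.015 to 0.030, ERN2 from -0.052 to 0.053, and SREBF1 from -0.18 to 0.20. Under quantile normalization MBTPS1 probe set 217543_s_at was at -0.017, ERN2 at -0.036 and SREBF1 at -0.029. Cyclic loess gave 0.0024 for 216208_s_at, -0.0074 for ERN2 and -0.00057 for SREBF1. ERN2 was at -0.00040 with centred arrays, -0.046 with the mean of its probe sets and -0.093 where probe sets shared by several transcripts were dropped. ATF6B and 5 probe sets of the 9 genes were close to or under the brightness minimum, where signal limits what can be seen.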
